A study of Mus musculus with 8 samples.

Results

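Small leucine-rich proteoglycans (SLRPs) are secreted matrix proteins, and 10 of them were described here in rib chondrocytes of wild-type and *Mir140*-null mice: *Dcn*, *Bgn* and *Aspn* (class I), *Fmod*, *Lum*, *Prelp* and *Omd* (class II), *Epyc* and *Ogn* (class III) and *Chad* (class IV). They were chosen by name, and each matched 1 Ensembl identifier among the 52325 identifiers of the expression files. All 10 passed the filter on low values and were tested. The 8 libraries came from costal (rib) chondrocytes of 7-d-old mice of the C57BL/6J background, 4 wild-type and 4 *Mir140*-null. In the null mice the *Mir140* locus, which encodes miR-140-5p and miR-140-3p, had been deleted with CRISPR/Cas9 in the germline and so in every cell. The founders were of mixed C57BL/6 and CBA/ca origin and were backcrossed to C57BL/6J, and the wild-type and null lines both descend from crosses of heterozygous mice. Cells were released from the ribs by collagenase, with no sort, so RNA of other cell types of the rib could be present. The labels number the replicates but do not say whether each came from a separate animal, so p-values measure the spread between these samples only.

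The core of an SLRP is a solenoid of leucine-rich repeats that binds collagen, and most of the proteins bind to the surface of collagen fibrils and set how the fibrils grow and pack. Several carry glycosaminoglycan chains, chondroitin or dermatan sulfate on decorin, biglycan and epiphycan and keratan sulfate on fibromodulin, lumican, osteomodulin and osteoglycin, whereas asporin, PRELP and chondroadherin carry none. In cartilage they also hold growth factors such as TGF-β in the matrix and contact cells through integrins and other receptors. Many of the genes are active in fibroblasts, tendon and bone as well as in chondrocytes.

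Values are TPM, an abundance corrected for transcript length and for the total of the library, so that levels of different genes can be compared. The deleted gene, *Mir140*, was listed at 0 in 7 of the 8 libraries, wild-type ones included, and only the library labelled *Mir140*-null 2 had a value above it (8.86 TPM), so these poly(A) libraries do not check the genotype labels. The 15 chondrocyte markers summed to 68045 to 84631 TPM in wild-type and 52049 to 72160 TPM in null libraries, most of it *Col2a1* (means 57785 and 41414 TPM), and of the list *Acan* was called higher and *Col9a1*, *Col11a1* and *Hapln1* lower. *Mir140*-null 1 and 2 stood apart. In them 14 fibroblast and perichondrium markers summed to 617 and 760 TPM, against 5381 and 3921 TPM in *Mir140*-null 3 and 4 and a wild-type range of 3160 to 6012 TPM. Most of this sum was *Col1a1*, *Col1a2*, *Col3a1* and *Postn* (wild-type means 1169, 1319, 1294 and 631 TPM), so the other markers weigh little in it. Of the 14 markers 12 were tested, only *Pdgfra* was called (higher), and none was at 0 in all libraries. The same holds for 5 tendon markers, at 22.7 and 25.7 TPM in these libraries against 164 to 416 TPM in the other 6. *Mir140*-null 1 and 2 also had the fewest genes at 0.5 TPM or more, 15800 and 16056 against 16991 to 17950 in the other 6. Their sample headers carry the numbers 23 and 24, and those of the other 6 carry numbers from 29 to 35. The labels do not say what these numbers mean. Mitochondrial transcripts took 4.06% to 6.98% of TPM in wild-type and 8.41% to 10.1% in null libraries. Changes of the SLRP genes are therefore also given without *Mir140*-null 1 and 2, a choice made after the data were seen.

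*Bgn*, which encodes biglycan, was by far the most abundant SLRP transcript, and it ranked 14th of all genes by its wild-type mean. TPM of *Bgn* was 7309, 8327, 6738 and 7698 in wild-type 1 to 4, a mean of 7518 ± 668 (SD, n = 4). *Chad* followed at 1346 ± 335 and *Fmod* at 1203 ± 123 TPM. These neighbours did not differ beyond their spread, since *Chad* exceeded *Fmod* in 2 of 4 wild-type libraries. *Dcn* came next at 482 ± 24.7 TPM, the steadiest of the 10 across wild-type libraries, with an SD of 5.14% of its mean. *Omd* at 262 ± 39.2 and *Epyc* at 239 ± 24.7 TPM had overlapping ranges, although *Omd* was the higher in all 4 libraries. *Epyc* lay above *Lum* (152 ± 18.7 TPM) without overlap. The lower end was formed by *Aspn* at 104 ± 33.5, *Ogn* at 82.4 ± 25.4 and *Prelp* at 70 ± 10.6 TPM, and no neighbours among these 3 had separate ranges. From *Bgn* to *Prelp* the family thus spanned ranks 14 to 1457 among all genes.

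In the *Mir140*-null libraries the order was different in places. By group mean *Bgn* was again first and *Prelp* last, *Dcn* kept its 4th place and *Epyc* its 6th. The last place was not firm, since the null means of *Prelp* and *Aspn* were 65.5 and 66.7 TPM. *Aspn* was the lower of these in *Mir140*-null 1, 2 and 4. Nor was the 6th place firm, since *Omd* exceeded *Epyc* in 2 of 4 null libraries. *Fmod* exceeded *Chad* in 4 of 4 null libraries, *Lum* exceeded *Epyc* in 4 of 4 and *Ogn* exceeded *Aspn* in 4 of 4. In wild-type libraries the last 2 pairs had the opposite order in 4 of 4.

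**Figure D1:**
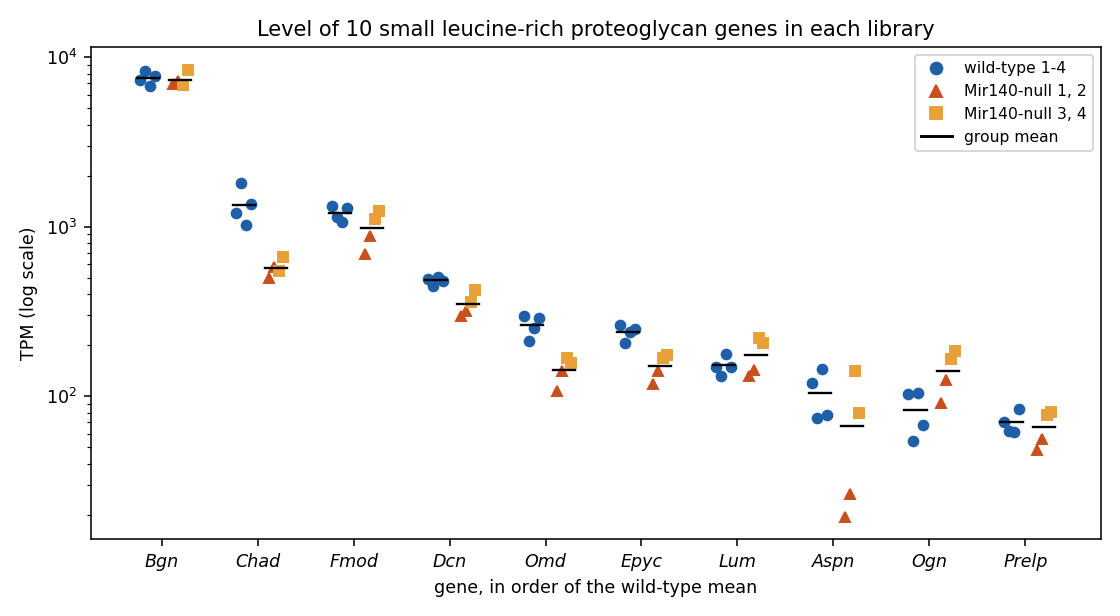
TPM (log axis) of the 10 SLRP genes in each library, ordered by wild-type mean, with a bar at each group mean (n = 4). The null libraries of *Chad*, *Omd*, *Epyc* and *Dcn* all sit below the wild-type libraries, and *Mir140*-null 1 and 2 (triangles) sit far below the other 6 for *Aspn*.

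*Chad*, *Omd*, *Epyc* and *Dcn* were down-regulated in *Mir140*-null chondrocytes (limma on log2(TPM + 1), Benjamini-Hochberg adjusted p under 0.05 over 17177 genes), and no SLRP gene was up-regulated. Of all genes tested 16.9% were called, 6.4% lower and 10.5% higher. At an unadjusted p under 0.05 in limma, 4 SLRP genes were lower and 1, *Ogn*, was higher, beside 14.9% and 19% of all genes tested. The 4 genes are also those whose null libraries all lay below all wild-type libraries, which was so for 10.2% of all genes tested, while 15.7% had all null above all wild-type libraries. The ranges of the other 6 overlapped between genotypes. For the 10 genes together the log2 fold change had a median of −0.40, beside −0.01 for all genes tested, and 8 of the 10 values were negative.

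*Chad* encodes chondroadherin, a cartilage protein that binds collagen and the integrin α2β1 and has no glycosaminoglycan chain. Its TPM was 1197, 1804, 1022 and 1359 in wild-type 1 to 4 and 500, 582, 550 and 659 in *Mir140*-null 1 to 4. Every null library was thus well below the lowest wild-type library, and the null libraries lay closer together than the wild-type ones. The group means were 1346 ± 335 and 573 ± 67 TPM (SD, n = 4), a fall to 0.425 of the wild-type mean. On the log2(TPM + 1) scale *Chad* fell by 1.21 (SE 0.18, 95% interval −1.61 to −0.80, limma adjusted p = 0.00801). It was the change with the smallest p among the 10, and 256th by p among all genes tested.

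*Chad* was low in null libraries with many and with few fibroblast transcripts. *Mir140*-null 3 and 4, with fibroblast sums inside the wild-type range, had 550 and 659 TPM of *Chad*, and *Mir140*-null 1 and 2 had 500 and 582 TPM. The log2 fold change of *Chad* without *Mir140*-null 1 and 2 was −1.13 with an adjusted p of 0.0598 in limma, and without *Mir140*-null 3 and 4 it was −1.29 with an adjusted p of 0.0157. In bulk RNA, fewer cells of a type and less RNA per cell cannot be told apart.

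*Chad* lies on chromosome 11 (chr11:94565047-94569127, + strand, mm10), apart from the other SLRP genes. Its promoter is shown because it was the gene that fell most of the called members. The 250 bases before its RefSeq start (GRCm38.p6, chr11:94564797-94565046, + strand) are printed with the only match to the motifs searched in capitals. The motif is TATAAA, 28 bases before the start.

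Chad promoter: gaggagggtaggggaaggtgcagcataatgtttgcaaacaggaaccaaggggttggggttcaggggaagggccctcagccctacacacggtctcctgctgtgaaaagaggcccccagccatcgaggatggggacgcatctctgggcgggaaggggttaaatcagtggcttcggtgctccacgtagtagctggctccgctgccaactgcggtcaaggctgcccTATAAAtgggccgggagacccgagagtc

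TATAAA stood between 40 and 15 bases before the start in 1.99% of 32851 RefSeq promoter windows, and anywhere in the 250 bases on either strand in 12.4%. The other motifs searched on both strands, the SOX-type words ACAATG and ACAAAG, were absent from this window and present in 10.7% and 16.5% of windows. A match is a description of letters only.

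*Omd* encodes osteomodulin, a keratan sulfate proteoglycan best known from bone. Its TPM was 297, 211, 252 and 288 in wild-type 1 to 4 and 108, 141, 167 and 157 in *Mir140*-null 1 to 4. The highest null library did not reach the lowest wild-type library. The means were 262 ± 39.2 and 143 ± 26 TPM (SD, n = 4), and the log2 change was −0.87 (SE 0.17, 95% interval −1.26 to −0.49, limma adjusted p = 0.0152). Osteoblast markers, of which 6 of 8 were tested and 0 called in limma (0 higher and 2 lower at an unadjusted p under 0.05, beside 19% and 14.9% of all genes), summed to 30.2 to 42.3 TPM in wild-type and 16.1 to 33.8 TPM in null libraries. Their part in the level of *Omd* was not tested. The change of *Omd* was −0.68 without *Mir140*-null 1 and 2, with an adjusted p of 0.0737 in limma.

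*Epyc* encodes epiphycan, a dermatan sulfate proteoglycan found mainly in growth cartilage. Its TPM was 263, 205, 238 and 248 in wild-type 1 to 4 and 118, 140, 167 and 176 in *Mir140*-null 1 to 4. The groups did not overlap, and *Mir140*-null 1 and 2 were the lowest of the 8. The means were 239 ± 24.7 and 150 ± 26.8 TPM (SD, n = 4), and the log2 change was −0.68 (SE 0.15, 95% interval −1.01 to −0.34, limma adjusted p = 0.0216). Leaving out *Mir140*-null 1 and 2 gave a change of −0.47 with an adjusted p of 0.0879 in limma. *Epyc* also lost its call without wild-type 1, 3 or 4 or without *Mir140*-null 2, at adjusted p of 0.053, 0.0579, 0.0603 and 0.0604 in limma and log2 changes of −0.68 to −0.63.

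*Dcn* encodes decorin, which binds collagen fibrils and TGF-β. Its TPM was 489, 449, 508 and 481 in wild-type 1 to 4 and 297, 319, 361 and 424 in *Mir140*-null 1 to 4. The gap between groups was narrow, from 424 TPM in *Mir140*-null 4 to 449 TPM in wild-type 2. The means were 482 ± 24.7 and 350 ± 55.8 TPM (SD, n = 4), and the log2 change was −0.47 (SE 0.12, 95% interval −0.75 to −0.19, limma adjusted p = 0.0351). Of the 8 fits that each left out 1 library, *Chad* and *Omd* were called in all 8, *Epyc* in 4 and *Dcn* in 1. *Dcn* kept its call only without *Mir140*-null 4 (log2 change −0.57, adjusted p = 0.021 in limma), and leaving out any of the other 7 libraries gave changes of −0.50 to −0.40 and adjusted p up to 0.0904. With *Mir140*-null 1 and 2 both left out the change of *Dcn* was −0.30 with an adjusted p of 0.147 in limma.

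With *Mir140*-null 3 and 4 as the only null libraries, limma called 0 of the 10 genes, and it called 1.22% of all genes lower. At an unadjusted p under 0.05 in that fit 4 SLRP genes were lower and 2 higher, beside 8.44% and 16.5% of all genes tested. *Mir140*-null 3 and 4 both lay below all 4 wild-type libraries for *Chad*, *Omd*, *Epyc* and *Dcn*, as for 13.3% of all genes tested. Without *Mir140*-null 3 and 4 instead, 6 SLRP genes were called lower, the same 4 with *Aspn* and *Fmod*, and 12.9% of all genes were called lower and 11% higher.

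**Figure D2:**
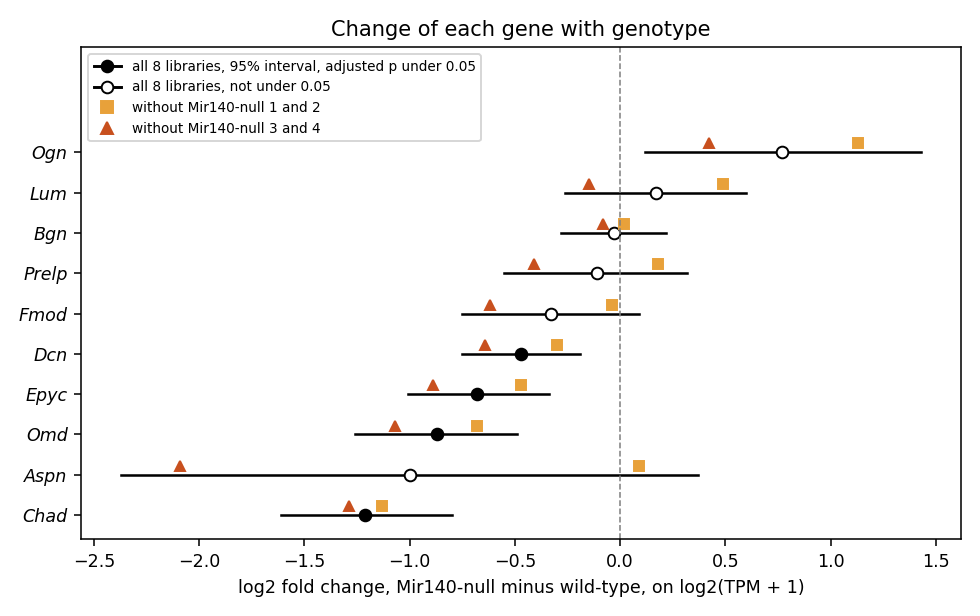
Log2 fold change of each SLRP gene, *Mir140*-null minus wild-type on log2(TPM + 1), as circles with 95% intervals from all 8 libraries (filled where the adjusted p was under 0.05), with the same value without *Mir140*-null 1 and 2 (squares) and without *Mir140*-null 3 and 4 (triangles). *Chad* lies near −1.21 in each fit, whereas *Aspn* moves from −2.09 to 0.09 with the null libraries used.

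*Bgn* did not differ detectably. Its TPM was 6983, 7202, 6848 and 8426 in *Mir140*-null 1 to 4, a mean of 7365 ± 722 (SD, n = 4), beside 6738 to 8327 in wild-type libraries, and the groups overlapped almost fully. The log2 change was −0.03 (SE 0.11, limma adjusted p = 0.87), and its 95% interval of −0.28 to 0.22 bounds the change that these libraries allow. It was 0.02 (adjusted p = 0.947 in limma) without *Mir140*-null 1 and 2.

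*Aspn* encodes asporin, an SLRP with a stretch of aspartates in place of a chain, which can bind TGF-β. Its TPM was 119, 74.5, 144 and 77.2 in wild-type 1 to 4 and 19.4, 26.5, 141 and 79.8 in *Mir140*-null 1 to 4. *Mir140*-null 1 and 2 were far below the other 6 libraries, while *Mir140*-null 3 and 4 lay inside the wild-type range. The log2 change was −1.0 with an SE of 0.60 (95% interval −2.37 to 0.37, limma adjusted p = 0.276). It was 0.09 (adjusted p = 0.9 in limma) without *Mir140*-null 1 and 2 and −2.09 (adjusted p = 0.0104 in limma) without *Mir140*-null 3 and 4. Ordered by *Aspn*, the 8 libraries stood nearly as when ordered by the fibroblast marker sum, with only wild-type 1 and *Mir140*-null 3 exchanged. Among the single fibroblast markers, *Col1a1* was at 47.8 and 50.1 TPM and *Col3a1* at 100 and 104 TPM in *Mir140*-null 1 and 2, against at least 793 and 880 TPM in the other 6 libraries. Not every marker of the list was as low in *Mir140*-null 1 and 2. *Col1a2* was at 343 and 493 TPM (wild-type 1013 to 1605) and *Ly6a* at 17.4 and 8.75 TPM (wild-type 16.8 to 26). *Pdgfra* went the other way, at 34.5 and 36.5 TPM (wild-type 11.8 to 19.8). Whether fibroblast RNA sets the level of *Aspn* was not tested.

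**Figure D3:**
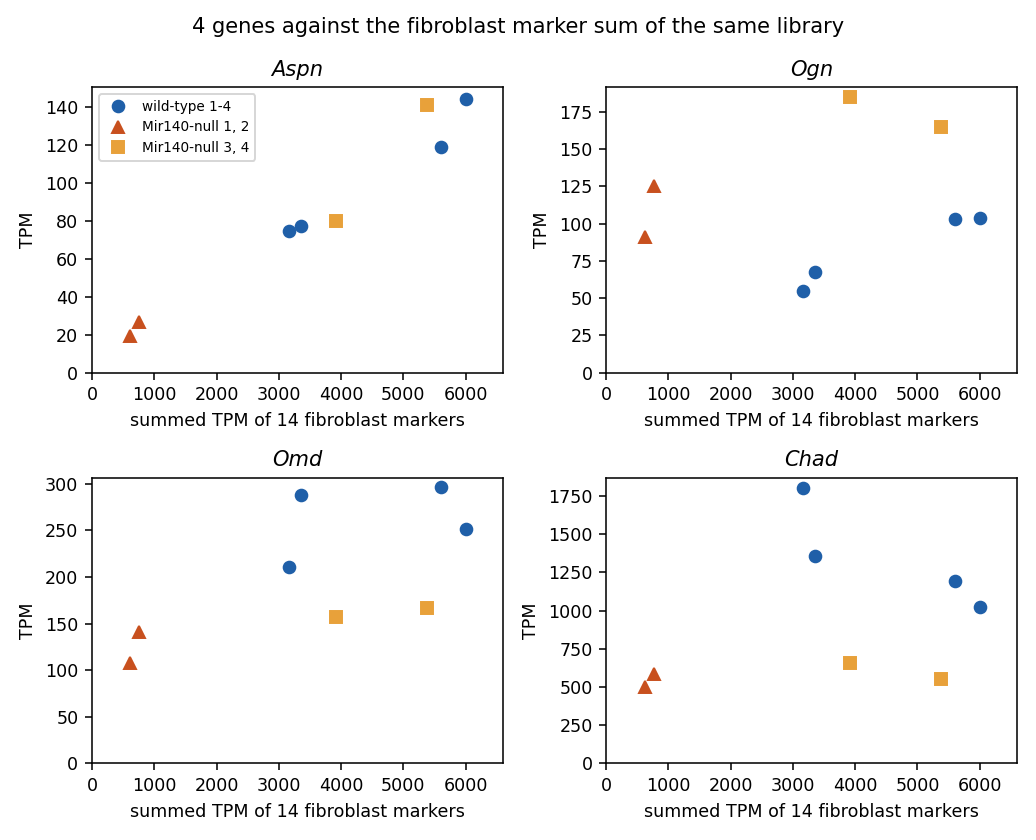
TPM of *Aspn*, *Ogn*, *Omd* and *Chad* (vertical axes) against the summed TPM of 14 fibroblast and perichondrium markers (horizontal axes), 1 point per library. *Aspn* is higher in the libraries with a higher marker sum in both genotypes, whereas for *Chad* all 4 null libraries lie at 500 to 659 TPM whether their marker sum is 617 or 5381 TPM.

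*Fmod* and *Lum* encode fibromodulin and lumican, which both bind to the collagen fibril. TPM of *Fmod* was 1320, 1145, 1059 and 1288 in wild-type 1 to 4 and 690, 878, 1103 and 1239 in *Mir140*-null 1 to 4. TPM of *Lum* was 149, 132, 178 and 149 in wild-type 1 to 4 and 131, 142, 219 and 207 in *Mir140*-null 1 to 4. For both genes the groups overlapped, with *Mir140*-null 1 and 2 below *Mir140*-null 3 and 4. The log2 changes were −0.33 for *Fmod* (SE 0.18, limma adjusted p = 0.246) and 0.17 for *Lum* (SE 0.19, limma adjusted p = 0.558). They were −0.04 and 0.49 without *Mir140*-null 1 and 2, with adjusted p of 0.885 and 0.0935 in limma.

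*Prelp* encodes a protein with a basic, heparin-binding N terminus that links basement membrane and collagen. Its TPM was 70.9, 62.6, 61.7 and 84.6 in wild-type 1 to 4 and 48.4, 56.1, 77 and 80.8 in *Mir140*-null 1 to 4. The groups overlapped, and the log2 change was −0.11 (SE 0.19, 95% interval −0.55 to 0.32, limma adjusted p = 0.708). Its sign turned with the null libraries used, at 0.18 without *Mir140*-null 1 and 2 and −0.41 without *Mir140*-null 3 and 4, with adjusted p of 0.505 and 0.117 in limma.

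The split of the null libraries ran through most of the family. *Mir140*-null 1 and 2 both lay below *Mir140*-null 3 and 4 for 8 of the 10 SLRP genes, the exceptions being *Bgn* and *Chad*, and this was so for 37.6% of all genes tested. They were the 2 lowest of all 8 libraries for 6 SLRP genes (*Aspn*, *Dcn*, *Epyc*, *Fmod*, *Omd* and *Prelp*), and for 21.1% of all genes tested.

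*Ogn* encodes osteoglycin, also called mimecan, and it had the largest positive log2 change of the 10. Its TPM was 103, 54.5, 104 and 67.3 in wild-type 1 to 4 and 91.1, 125, 165 and 185 in *Mir140*-null 1 to 4. The groups overlapped through *Mir140*-null 1 only, the library with the lowest fibroblast marker sum. The means were 82.4 ± 25.4 and 141 ± 41.7 TPM (SD, n = 4), and the log2 change of 0.77 (SE 0.28, 95% interval 0.12 to 1.43) did not pass, with a limma adjusted p of 0.0959. *Ogn* passed in 2 of the 10 other settings tried, with 2 factors taken from the residuals of the genotype fit and with sample weights. Such factors could not alter the log2 change, which stayed at 0.77, and changed only its error. From *Mir140*-null 3 and 4 alone its change was 1.13 (adjusted p = 0.0899 in limma), and *Mir140*-null 3 and 4 both lay above all wild-type libraries for *Ogn* and *Lum*, as for 24.7% of all genes tested.

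*Ogn*, *Omd* and *Aspn* are neighbours on the + strand of chromosome 13, with *Ecm2* before them. *Omd* (chr13:49582462-49592822) ends 15.2 kb before *Ogn* (chr13:49608046-49624501) begins, with no other protein-coding gene between them. The TPM ratio of *Ogn* to *Omd* does not depend on the scaling between libraries. It was 0.348, 0.259, 0.415 and 0.234 in wild-type 1 to 4 and 0.844, 0.889, 0.985 and 1.18 in *Mir140*-null 1 to 4. The lowest null ratio was above the highest wild-type ratio, the mean log2 difference was 1.66, and *Mir140*-null 1 and 2 gave nearly the same ratio as *Mir140*-null 3. Leaving out any 1 library gave differences of 1.53 to 1.81, and leaving out *Mir140*-null 1 and 2 gave 1.82. The promoter windows of the pair are printed to set both genes side by side (250 bases before the RefSeq starts, GRCm38.p6, + strand, chr13:49582212-49582461 for *Omd* and chr13:49607765-49608014 for *Ogn*, with motif matches in capitals).

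Omd promoter: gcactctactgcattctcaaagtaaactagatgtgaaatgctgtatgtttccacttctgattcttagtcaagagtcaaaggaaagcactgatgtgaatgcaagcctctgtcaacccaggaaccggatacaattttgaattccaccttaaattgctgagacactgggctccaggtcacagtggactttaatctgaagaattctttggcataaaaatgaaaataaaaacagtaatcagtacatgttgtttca
Ogn promoter: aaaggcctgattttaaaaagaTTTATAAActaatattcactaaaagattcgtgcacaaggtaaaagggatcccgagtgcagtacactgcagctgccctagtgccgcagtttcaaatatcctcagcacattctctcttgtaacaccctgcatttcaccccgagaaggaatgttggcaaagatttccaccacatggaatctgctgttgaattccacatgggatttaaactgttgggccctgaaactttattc

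The *Omd* window held none of the 3 motifs. In the *Ogn* window TATAAA and its reverse complement TTTATA overlapped, 227 and 229 bases before the start, outside the usual place of a TATA box. The RefSeq start of *Ogn* was not found in a GENCODE M21 transcript of the gene, so its window may not be the promoter used in these cells.

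The other 2 ratios moved less. *Dcn* per *Bgn*, the class I genes with chondroitin or dermatan sulfate, had a log2 ratio of −4.21 to −3.73 in wild-type and −4.56 to −4.25 in null libraries, a difference of −0.44 with no overlap. *Fmod* per *Lum* was 5.96 to 8.84 in wild-type and 5.04 to 6.2 in null libraries. These ranges overlapped through wild-type 3, and the log2 difference was −0.50. Without *Mir140*-null 1 and 2 the log2 differences were −0.32 for *Dcn* per *Bgn* and −0.53 for *Fmod* per *Lum*.

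**Figure D4:**
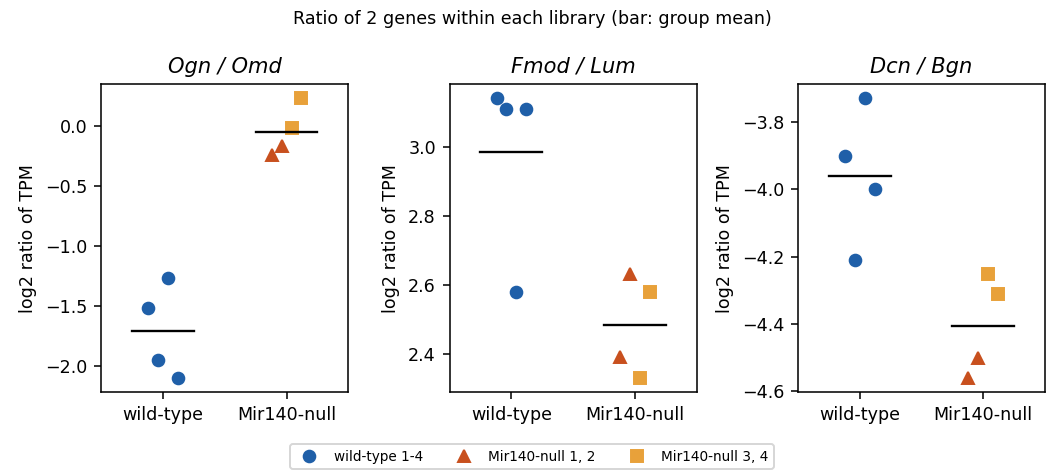
Log2 ratio of the TPM of 2 genes within each library (vertical axes) by genotype, with a bar at the group mean (n = 4). The *Ogn* to *Omd* ratio was −2.1 to −1.27 in wild-type and −0.24 to 0.23 in null libraries, and the *Fmod* to *Lum* ratios overlapped.

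A cluster on chromosome 10 holds *Dcn* (chr10:97479609-97518143), *Lum* (chr10:97565128-97572703), the corneal SLRP gene *Kera* and *Epyc* (chr10:97644068-97682454), all on the + strand. In it *Dcn* and *Epyc* fell and *Lum*, 47 kb after *Dcn*, did not pass in either direction. *Kera* had 2.97 to 13 TPM in wild-type libraries, and its 4 null values of 0.235, 0.295, 10.7 and 9.71 TPM split between the same libraries as those of *Aspn*. It was also counted in the tendon marker sum given above, so its split is part of the split of that sum. On chromosome 1 *Prelp* (chr1:133910304-133921414, − strand) and *Fmod* (chr1:134037254-134048277, + strand) lie 116 kb apart, with *Optc* 2.3 kb from *Prelp*, and none of these 3 was called. *Ecm2*, the neighbour of *Aspn* (chr13:49544443-49567565), was at 60 to 71.4 TPM in wild-type and 40.3 to 57.5 TPM in null libraries, a log2 change of −0.40 that did not pass (limma adjusted p = 0.0675) although its groups did not overlap. *Bgn* lies alone on the X chromosome (chrX:73483602-73495933).

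**Figure D5:**
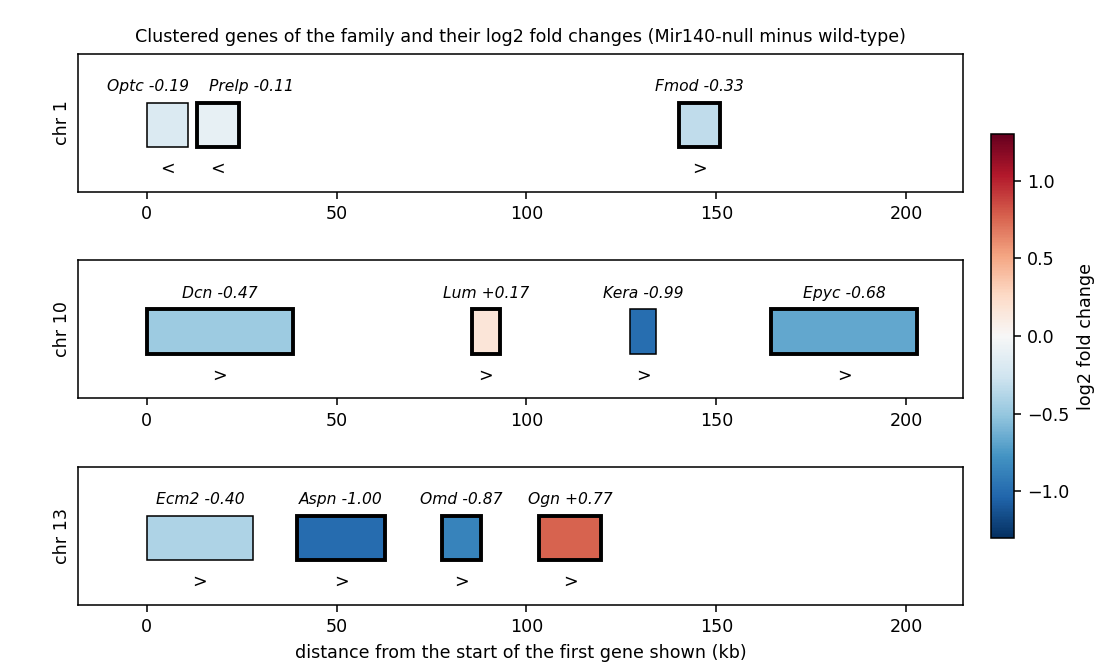
Genes of the 3 SLRP clusters drawn to scale in kb from the start of the first gene shown, with arrows for the strand, thick outlines for the SLRP genes described here and colour for the log2 fold change (*Mir140*-null minus wild-type), which is printed above each gene. Some neighbours differ in sign, with *Omd* at −0.87 beside *Ogn* at 0.77 and *Dcn* at −0.47 beside *Lum* at 0.17, but the changes of *Ogn* and *Lum* did not pass. Other neighbours share a negative sign, namely *Optc*, *Prelp* and *Fmod*, *Kera* and *Epyc*, and *Ecm2*, *Aspn* and *Omd*.

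The 10 transcripts together took 10305 to 12465 TPM in wild-type and 8985 to 11633 TPM in null libraries, or 1.03% to 1.25% and 0.899% to 1.16% of a library. *Bgn* supplied 64.6% to 66.8% of this sum in wild-type and 69.9% to 77.7% in null libraries. Without *Bgn* the sum was 3567 to 4138 TPM in wild-type and 2002 to 3207 TPM in null libraries. *Chad* supplied 9.92% to 14.5% in wild-type and 5.56% to 6.05% in null libraries. The share of *Bgn* was thus higher, and that of *Chad* lower, in each null library than in any wild-type library.

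To set the changes beside the miRNA that the null mice lack, the 3′UTR of each gene (the longest in GENCODE M21) was searched for the 7 letters that pair with the seed of each miR-140 product. The mature miR-140-3p (RefSeq, GRCm38.p6, chr8:107551288-107551308, + strand) is printed with its seed, bases 2 to 8, in capitals.

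miR-140-3p: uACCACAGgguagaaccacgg

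A 5′ isomiR that lacks the first base, called miR-140-3p.1, has its seed shifted by 1 base, and the annotated form is called miR-140-3p.2. The words searched were AACCACT for miR-140-5p, CCTGTGG for miR-140-3p.1 and CTGTGGT for miR-140-3p.2. Among 12988 tested genes with an annotated 3′UTR these words occurred in 10.9%, 20.2% and 19% of 3′UTRs. Of the 10 SLRP genes 4 had 1 word each and 6 had none. *Dcn* and *Ogn* held the word of miR-140-5p, *Fmod* and *Prelp* that of miR-140-3p.1, and no gene that of miR-140-3p.2. The share of all 3′UTRs with any of the words was not computed, so the count of 4 has no background beside it. The sites are shown with the word in capitals, since *Dcn* and *Ogn* share the same seed word and had log2 changes of opposite sign, of which only that of *Dcn* passed.

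Dcn, miR-140-5p: cataaatgtcAACCACTtagtaaagcg
Ogn, miR-140-5p: tgttataccaAACCACTatctaaatag
Fmod, miR-140-3p.1: aggaaccagcCCTGTGGagatgctcac
Prelp, miR-140-3p.1: gatcacagctCCTGTGGctgctaggga

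The sites are at chr10:97517926-97517952 (*Dcn*), chr13:49623202-49623228 (*Ogn*), chr1:134047591-134047617 (*Fmod*) and chr1:133910711-133910737 (*Prelp*, − strand), all in mm10 as the 27 bases printed. In *Ogn* and *Fmod* the word is followed by an A, a site type named 8mer, and in *Dcn* and *Prelp* it is not. The log2 changes of these 4 genes were −0.47 for *Dcn*, 0.77 for *Ogn*, −0.33 for *Fmod* and −0.11 for *Prelp*. *Chad*, *Omd* and *Epyc*, which fell, held none of the words in 3′UTRs of 552, 435 and 1184 bases, beside a median of 1159 bases. A word is a match of letters and shows no binding.

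The lists here were 9 further SLRP family genes, collagens that SLRPs bind, enzymes that build their chains, growth factors and receptors they bind, and proteinases that cut them. Their counts can be read beside the 10.5% of all genes called higher and 6.4% lower at the adjusted threshold, or 19% higher and 14.9% lower at an unadjusted p under 0.05, and their medians beside the log2 fold change of −0.01 at the median of all genes. Without *Mir140*-null 1 and 2 none of the calls made below from all 8 libraries passed, apart from those of *Mmp3* and *Mmp12*. Among the 9 family genes 6 were tested (median log2 change −0.11) and only *Chadl*, chondroadherin-like, was called. Its TPM was 183, 225, 178 and 201 in wild-type 1 to 4 and 306, 359, 227 and 295 in *Mir140*-null 1 to 4. *Chadl* thus rose by 0.58 on the log2 scale (SE 0.15, limma adjusted p = 0.0359), where *Chad* fell, and the groups were separated by 2 TPM. Its change was 0.40 without *Mir140*-null 1 and 2, with an adjusted p of 0.176 in limma, and *Chadl* was called in 2 of the 8 fits that left out 1 library.

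Of 16 collagens, with a median log2 change of −0.49, 3 were higher and 3 lower, or 3 and 5 at an unadjusted p under 0.05 in limma. The 3 higher genes encode the chains of collagen VI, the beaded-filament collagen that biglycan and decorin bind. *Col6a3* went from 453 to 868 TPM (log2 change 0.94, SE 0.15, limma adjusted p = 0.00882) and *Col6a2* from 335 to 550 TPM (0.72, SE 0.13, limma adjusted p = 0.0139). The 3 lower genes, *Col9a3*, *Col9a1* and *Col11a1*, encode chains of the thin cartilage fibril, with *Col9a3* going from 3220 to 2316 TPM (−0.48, SE 0.11, limma adjusted p = 0.0266). Other chains of that fibril did not pass, with log2 changes of 0.02 for *Col9a2* and −0.10 for *Col11a2* (limma adjusted p = 0.93 and 0.73). *Col2a1*, its most abundant chain, did not pass either, but its log2 change of −0.49 (limma adjusted p = 0.0695) was close to that of *Col9a3*. Of the 8 fits that left out 1 library, *Col6a2* and *Col6a3* were called in all 8, *Col9a3* in 3, and *Col6a1*, *Col9a1* and *Col11a1* in 1 each. Without *Mir140*-null 1 and 2 the change of *Col6a3* was 0.91 (adjusted p = 0.0575 in limma) and that of *Col9a3* −0.47 (adjusted p = 0.0755 in limma).

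Of 20 enzymes of chondroitin and dermatan sulfate synthesis 4 were higher and 0 lower in limma, with a median log2 change of 0.22 and with 9 higher and 0 lower at an unadjusted p under 0.05. The 4 were *Xylt1*, which starts the chain, *Chpf2*, which lengthens it, *Dse*, which turns chondroitin into dermatan sulfate, and *Chst11*, which adds sulfate. *Chst11* had the smallest p, from 55.3 to 122 TPM (log2 change 1.17, SE 0.27, limma adjusted p = 0.0266). *Chst11* was called in 4 of the 8 fits that left out 1 library, *Chpf2* in 3, *Xylt1* in 2 and *Dse* in 1, and its change was 0.92 (adjusted p = 0.169 in limma) without *Mir140*-null 1 and 2. Of 11 enzymes of keratan sulfate synthesis or tyrosine sulfation limma called 0, with a median log2 change of −0.10 and with 3 higher and 0 lower at an unadjusted p under 0.05.

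Of 22 growth factors and receptors 21 were tested, of which 7 were higher and 1, the ATP receptor gene *P2rx7*, was lower, with a median log2 change of 0.21. *Tlr2*, a receptor of soluble biglycan, was at 65 to 109 TPM in wild-type and 155 to 181 TPM in null libraries (log2 change 0.96, SE 0.16, limma adjusted p = 0.0106). *Tgfbr2*, a receptor of TGF-β, went from 10.5 to 15.8 TPM (0.55, SE 0.11, limma adjusted p = 0.018), and *Bmp6* from 17.9 to 73.1 TPM (1.92, SE 0.35, limma adjusted p = 0.0135). *Itgb1* and *Itga2*, the subunits of the integrin that binds chondroadherin, were both higher. *Itgb1* rose by 0.42 (SE 0.09, limma adjusted p = 0.0232) and *Itga2* by 0.96 (limma adjusted p = 0.0277). *Itga2* was a low gene that did not reach a mean of 5 TPM, and it was not called without a filter (adjusted p = 0.0628 in limma). *Itgb1* was called in 5 and *Itga2* in 2 of the 8 fits that left out 1 library, while *Tlr2*, *Tgfbr2* and *Bmp6* were called in all 8. Under quantile normalization *Itgb1* did not pass (0.25, adjusted p = 0.131 in limma). Without *Mir140*-null 1 and 2 the adjusted p in limma were 0.0591 for *Itgb1*, 0.114 for *Itga2*, 0.0767 for *Tlr2*, 0.0665 for *Tgfbr2* and 0.0755 for *Bmp6*.

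Of 12 proteinases 11 were tested, and limma called 3 higher and 0 lower, with a median log2 change of 0.44 and with 5 higher and 1 lower at an unadjusted p under 0.05. *Mmp3*, stromelysin, was at 48 to 111 TPM in wild-type and 457 to 994 TPM in null libraries, a log2 change of 2.94 (SE 0.32, limma adjusted p = 0.00405). *Mmp12* went from 10.2 to 47 TPM (2.13, SE 0.22, limma adjusted p = 0.00393) and *Tll1*, which trims SLRP propeptides, from 1.68 to 4.32 TPM (0.95, SE 0.22, limma adjusted p = 0.0252). When *Mir140*-null 1 and 2 were left out, the proteinases were the one list of these with calls in limma, and 2.08% of all genes were called higher. The 5 proteinase genes called higher in that fit were *Mmp12*, *Mmp3*, *Mmp2*, *Mmp13* and *Adamts5*, the last 3 of which did not pass with all 8 libraries, whereas *Tll1* lost its call (0.68, adjusted p = 0.0835 in limma).

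For *Bgn* and *Chad* the 5 tested genes with the highest Pearson r of log2(TPM + 1) over the 8 libraries, which share their genotype groups, were listed as a description. For *Chad* these were *Rad51ap2* (r = 0.978), *Car3* (0.976), *Aldh1l1* (0.976), *Sparc* (0.975) and *Ppa1* (0.975), and the null libraries lay below the wild-type libraries for each. *Rad51ap2* and *Car3* were near the floor, at 0.518 to 0.784 and 0.835 to 1.21 TPM in wild-type libraries. In null libraries they were at 0 to 0.226 and 0.137 to 0.294 TPM. Only wild-type libraries thus met the filter of 0.5 TPM for *Rad51ap2* and *Car3*, so the order of their groups carries no weight. *Sparc*, an abundant collagen-binding matrix gene, was at 19410 to 23651 TPM in wild-type and 15925 to 18545 TPM in null libraries. For *Bgn* they were *E030022I16Rik* (r = 0.963), *Dtna* (0.943), *Olfr509* (0.943), *Gm18699* (0.913) and *Efemp2* (0.893). Of these only *Efemp2*, which encodes fibulin-4 of the elastic fiber, was abundant, at 248 to 329 TPM in wild-type and 227 to 335 TPM in null libraries.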

How the data were processed

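The authors isolated RNA from collagenase-released rib chondrocytes, made stranded poly(A) libraries and deposited 1 table of TPM values by Ensembl identifier per sample, quantified with Salmon against the mm10 transcriptome (the version is not given in the sources used here). TPM correct for length and sum to the same total in every sample, and nothing further was done to align samples. Without counts the depth is unknown, and counting error could not be given. The authors tested counts with DESeq2 and RUVSeq factors. Here log2(TPM + 1) was tested with limma 3.58.1 in R 4.3.3 (trend, genotype as the only term, two-sided, 4 against 4 libraries, Benjamini-Hochberg) over the 17177 genes that reached 0.5 TPM in 4 or more libraries. A call is an adjusted p under 0.05. The script was tested on simulated data. Fold changes on this scale understate those of low genes. Identifiers listed on several lines were counted once.

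Groups and replicate numbers came from the labels, and no 2 libraries were identical. GENCODE M21 supplied gene positions and 3′UTRs (99.8% of identifiers matched), and promoter and miRNA sequences came from RefSeq (GRCm38.p6). 8 of the 10 members had a promoter window. Other steps used Python 3.11.15, NumPy 2.4.6, pandas 2.3.3 and matplotlib 3.10.9. Members, lists and tests were chosen with earlier results of these data known. Named were all members, of each list at most 4 called genes with the smallest p (with *P2rx7*, *Itga2*, *Col6a1*, *Col11a1*, *Col11a2*, *Mmp2*, *Mmp13*, *Adamts5*, single marker genes and neighbouring family genes, named after their values were seen), and the 5 genes most like *Bgn* and *Chad*. Alternatives were other pseudocounts, filters, scalings, a replicate block, residual factors, sample weights and leaving out libraries.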

Additional observations from a re-analysis of the deposited data

How the results depend on the processing

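The 4 genes called lower (*Chad*, *Omd*, *Epyc*, *Dcn*) became 2 to 4 when 1 library was left out and 0 without both *Mir140*-null 1 and 2. The replicate numbers do not pair the samples (correlations of same-numbered deviations −0.009 to 0.069), and not every sample correlated best with its own number. With the replicate number as a block, 1 SLRP gene was called lower, and of the other genes of the system 7 were called higher and 0 lower. SLRP genes called higher numbered 0 in each fit that left out 1 library, and 1 (*Ogn*) with 2 residual factors and with sample weights. Residual factors leave every log2 change as it was and alter only its error, so they do not correct the genotype difference. The other genes of the system called higher were 18, with 8 to 17 when 1 library was left out, 8 without a filter and 5 without both *Mir140*-null 1 and 2. Those called lower were 4, with 0 to 5 when 1 library was left out, 0 without a filter, 1 with median-ratio scaling, 14 with 1 factor, 14 with 2 factors, 2 with sample weights, 0 without both *Mir140*-null 1 and 2 and 17 without both *Mir140*-null 3 and 4. The wild-type mean of *Dcn* was 509 TPM when rescaled without mitochondrial genes. In that setting *Dcn* lost its call (log2 change −0.41, adjusted p = 0.052 in limma), and 3 SLRP genes were called lower. *Dcn* also lost its call without a filter and with the replicate block. The cause was not tested, except that fits without libraries hold fewer samples. *Chad* was called in 10 of 10 settings with all libraries (log2 change −1.21 to −1.14), *Epyc* and *Omd* in 9, *Dcn* in 7, *Ogn* and *Aspn* in 2. No direction of a called result reversed. TPM without counts give no depth, so low genes such as *Kera* are imprecise.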
